A study of Mus musculus with 12 samples.

Results

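Imprinted genes are the set of genes whose expression depends on which parent the copy came from. The 42 genes described here were taken from the known mouse imprinted clusters, and their CpG cytosines were collected within 3 kb of any annotated transcript start. Of 2156659 cytosines with at least 10 reads in at least 6 of the 12 libraries, 4111 lay in these windows. They belonged to 40 of the 42 genes. Rtl1, a retrotransposon-derived gene, and Rian, a noncoding RNA gene, had 0 such cytosines. DNA came from hippocampus and cortex mixed, from 4 wild-type (Wt) and 8 Tg2576 (Tg) mice of 11 months. A prion promoter drives the transgene of the Tg mice, human APP bearing a mutation of familial Alzheimer's disease. Among Wt animals the labels named 3 females and 1 male, and among Tg animals 4 females and 4 males. Each animal gave 1 library of reduced representation bisulfite sequencing (RRBS), in which methylated cytosines are read as C and unmethylated ones as T.

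At an imprinted cluster, a stretch of CpGs acquires methylation in the egg or in the sperm and keeps it on that parental copy in the body. Such a germline imprint acts as a control region. It can silence a promoter on the methylated copy, and the unmethylated copy often makes a noncoding RNA that keeps neighbouring genes silent. RRBS without parental variants cannot tell the copies apart, so an imprint that is full on 1 copy and absent from the other would be read near 50%. In the brain several of these clusters matter for growth, feeding and behaviour, among them Snrpn and Ube3a in the region of the Prader-Willi and Angelman syndromes.

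Neighbouring cytosines of both strands, with gaps of at most 200 bp, were joined into runs of at least 4 sites. The level of a run in an animal is the methylated percentage of the read counts summed over its sites, given from a sum of 30 up. A read that covers several sites is counted at each of them. In all, 86 runs lay at imprinted genes and held 4083 of the 4111 sites. Levels were compared with those of all 92628 runs of the genome that had a level in at least 6 animals, and with the 31409 of them near any transcript start.

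Read counts summed over the listed cytosines ranged from 33619981 to 131446103 per library, with a read counted at each cytosine it covers. The imprinted windows had a median of 18 to 45 reads per listed site. The libraries listed 63.1% to 99.8% of the 1351 imprinted sites on chromosome 7 and 68.3% to 99.1% of the other 2760. The library labelled Wt male had a mean level of 19.9% over X sites, whereas the Tg males had 5.498% to 5.67% and the libraries labelled female had 20.7% to 22.98%. Its sex label therefore went against its X values, and fits with a sex term are also given without it. Replicate numbers only name an animal.

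Sequences are shown first for a window in the later part of the Gnas run that held near 50% in every animal. The mean over the CpGs of this window was 35.2%. The Gnas window is followed by 5 stretches from other clusters, chosen after their values were seen as those of the germline imprint group with the most measured sites at 10 to 50% in every animal and a window that overlaps no annotated UTR of a coding transcript. Each window, that of Gnas included, is the 180 bases with the most measured CpGs among those that overlap no such UTR, on the plus strand of mm10. Capitals mark the CpGs measured at a mean of 10 to 50%.
Gnas, chr2:174298288-174298467: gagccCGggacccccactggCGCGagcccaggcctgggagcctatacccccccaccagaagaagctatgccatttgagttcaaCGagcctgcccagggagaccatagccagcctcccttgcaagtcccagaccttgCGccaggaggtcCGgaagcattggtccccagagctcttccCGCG
Grb10, chr11:12026276-12026455: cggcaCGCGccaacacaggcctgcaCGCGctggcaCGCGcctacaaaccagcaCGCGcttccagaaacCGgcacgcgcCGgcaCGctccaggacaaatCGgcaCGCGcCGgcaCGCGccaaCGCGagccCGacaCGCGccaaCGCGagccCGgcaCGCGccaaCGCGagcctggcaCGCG
Plagl1, chr10:13091025-13091204: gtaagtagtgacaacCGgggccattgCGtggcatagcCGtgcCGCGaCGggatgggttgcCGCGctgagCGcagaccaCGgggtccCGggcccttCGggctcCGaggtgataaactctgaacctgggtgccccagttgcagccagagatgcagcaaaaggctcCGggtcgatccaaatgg
Peg13, chr15:72809938-72810117: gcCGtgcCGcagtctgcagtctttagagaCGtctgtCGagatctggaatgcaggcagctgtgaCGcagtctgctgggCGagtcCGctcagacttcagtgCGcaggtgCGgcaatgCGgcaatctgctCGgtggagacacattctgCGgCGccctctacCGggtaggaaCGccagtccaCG
Mcts2, chr2:152686806-152686985: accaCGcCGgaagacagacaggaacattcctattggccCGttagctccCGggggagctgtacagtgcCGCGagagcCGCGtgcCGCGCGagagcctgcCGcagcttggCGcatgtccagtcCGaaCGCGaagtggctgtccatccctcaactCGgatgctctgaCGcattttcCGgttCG
Kcnq1ot1, chr7:143295425-143295604: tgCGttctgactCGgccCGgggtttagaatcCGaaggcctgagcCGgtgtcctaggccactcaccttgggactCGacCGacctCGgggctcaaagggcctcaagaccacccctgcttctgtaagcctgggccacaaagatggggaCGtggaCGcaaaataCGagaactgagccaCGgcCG

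In the Gnas window, all 8 CpGs were measured and lay between 30.2% and 47.2%. In Mcts2, a retrogene inside an intron of H13, all 20 CpGs lay between 24.6% and 30.5%. The 16 CpGs of the Peg13 window, at the start of a noncoding RNA inside Trappc9, ranged from 19.9% to 27.4%. In Plagl1, which encodes a zinc finger protein that restrains growth, 14 of 15 CpGs were measured and lay between 24.8% and 30.04%. The Kcnq1ot1 window, in the noncoding RNA that silences Cdkn1c and its neighbours, was less even, from 11.0% to 38.4% over 13 CpGs. In the Grb10 window, a repeat rich in CpGs, 31 of 32 measured CpGs lay at 10 to 50%, and the lowest was at 9.73%. Every measured CpG of the 6 windows had a mean under 50%. This is no result for the windows other than Gnas, since their runs were chosen for levels of 10 to 50% in every animal. The Gnas window lies in the later part of its run, and an earlier site of that run had a mean of 88.8%.

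The first question was which imprinted loci held near 50% in every animal. A run was taken as near 50% when its level was 35 to 65% in each animal. Of the 86 imprinted runs, 1 met this (1.16%), against 0.668% of all runs of the genome. It lay in Gnas, the gene of the stimulatory G protein alpha subunit. By site, 136 of the 4111 imprinted sites (3.31%) had a mean of 35 to 65%, against 5.95% of all sites and 1.97% of sites within 3 kb of any start. The order of imprinted and all sites turned with a band of 30 to 70% (11.1% against 8.18%), and the shares were 2.16% and 2.09% with sites in all 12 libraries. Only 1 imprinted site (0.0243%) was at 35 to 65% in every animal that listed it, as were 0.0147% of all sites.

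The Gnas run spanned chr2:174297978-174298474, 46 sites that began 119 bp after the start of the Gnasxl transcript, which encodes the extra-large form of the protein. Its levels in Wt animals were 49.3%, 51.0% and 42.3% in the females and 44.5% in the library labelled Wt male. In Tg animals the lowest was 37.5%, the median 45.3% and the highest 48.7%. Wt animals had a mean of 46.8% ± 4.07 (SD, n = 4), and Tg animals one of 44.1% ± 3.95 (SD, n = 8). The ranges of the groups overlapped, and Tg minus Wt came to -2.66 points, less than either SD. This is given with no test, since the run was chosen for having every animal within the band.

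This run was not level along its length. In its first 100 bp, 19 sites had a mean of 60.05% and ranged from 34.2% to 88.8%. The next 100 bp had a mean of 46.0% over 6 sites. The 3 stretches after them had 30.5% over 2 sites in 10 animals, 35.6% over 10 and 33.7% over 9. Every animal showed a level of 51.4% to 70.2% in the first stretch, and of 19.3% to 50.5% in the last. The level near 50% was thus the mean of a more methylated first 200 bp and a remainder at 30.5% to 35.6%. The run that followed it, of 191 sites at chr2:174299003-174300607, had a mean of 27.7% ± 2.75 (SD, n = 12) and ranged from 23.9% to 32.4%.

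**Figure D1:**
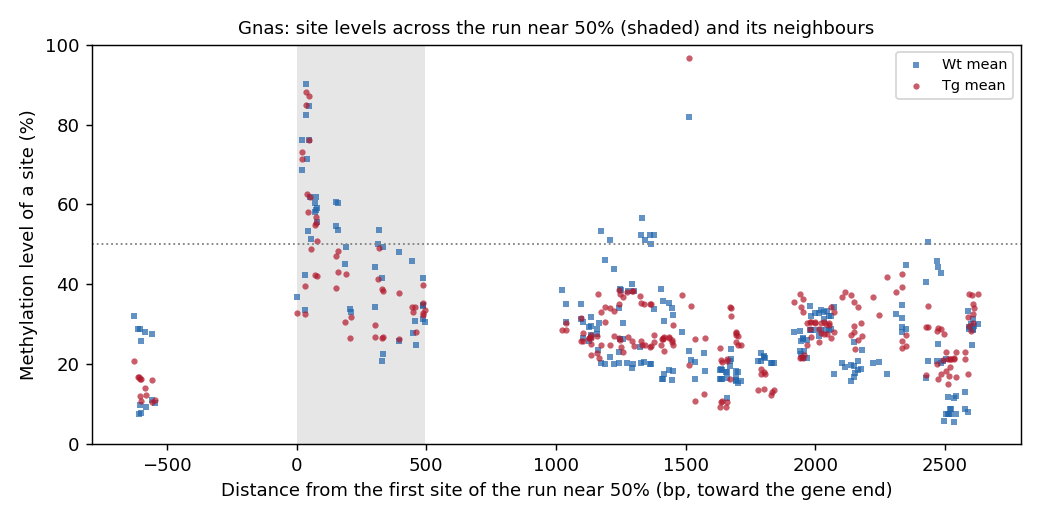
Mean methylation level of each Gnas site in Wt (blue squares) and Tg (red circles) animals, as a percentage, against the distance in bp from the first site of the run near 50%, which is shaded. In the shaded run the mean is 60.05% in the first 100 bp, 46.0% in the next and 30.5% to 35.6% after that, and the following run has a mean of 27.7%.

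One other run missed the band in a single animal. It covered 12 sites over a start of Igf2, the paternally expressed growth factor gene, at chr7:142657283-142657533. Its mean was 42.0% ± 6.34 (SD, n = 12). Its Wt levels were 45.4%, 41.8% and 43.5% in the females and 36.3% in the library labelled Wt male, and its Tg levels ran from 28.2% over a median of 43.4% to 53.2%. The value of 28.2% was that of Tg male 1, and without this animal 2 runs in place of 1 held near 50%. At 20 reads per site, with plus-strand sites alone or with a band of 40 to 60%, 0 did.

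Most imprinted runs were either almost unmethylated or partly methylated at levels below 35%. Means were under 10% in 28 runs, 10 to 35% in 49, 35 to 65% in 4 and over 65% in 5. The shares of all runs of the genome in these classes were 24.2%, 13.01%, 14.9% and 47.9%, and those of runs near any start were 57.9%, 12.2%, 8.60% and 21.3%. So 57.0% of the imprinted runs were at 10 to 35%, against 13.01% of all runs. The 52 runs with means of 10 to 50% are called partly methylated here. Their means ran from 11.8% to 45.01%, with a median of 24.2% and quartiles of 20.9% and 29.0%.

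A stricter count asked for 10 to 50% in every animal, with limits chosen after the values were seen. It held for 23 imprinted runs (26.7%), against 4.48% of all runs and 3.97% of runs near any start. By site, 1791 of 4111 imprinted sites (43.6%) had a mean of 10 to 50%, against 10.1% of all sites and 5.60% of sites near any start. Of 1632 imprinted CpGs measured on both strands, 727 had a mean of 10 to 50%. The strands of these differed by a median of 4.54 points, and in 689 both were within 10 to 50%.

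The groups of genes differed in these counts. The windows lie at transcript starts and the first group was defined by an imprint at a promoter, so the imprints of the groups were not sampled alike. The 18 genes with a maternal germline imprint at a promoter had 43 runs, of which 4 had means under 10%, 36 had means of 10 to 35% and 2 of 35 to 65%. The median of their run means was 24.3%. The 9 genes of clusters with a paternal germline imprint had 20 runs, of which 12 were under 10%, 4 at 10 to 35%, 1 at 35 to 65% and 3 above. The other 15 genes of maternal-imprint clusters had 23 runs, of which 12 were under 10% and 9 at 10 to 35%. By site, 66.3% of 1967, 7.73% of 932 and 34.2% of 1212 sites were at 10 to 50% in the 3 groups.

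**Figure D2:**
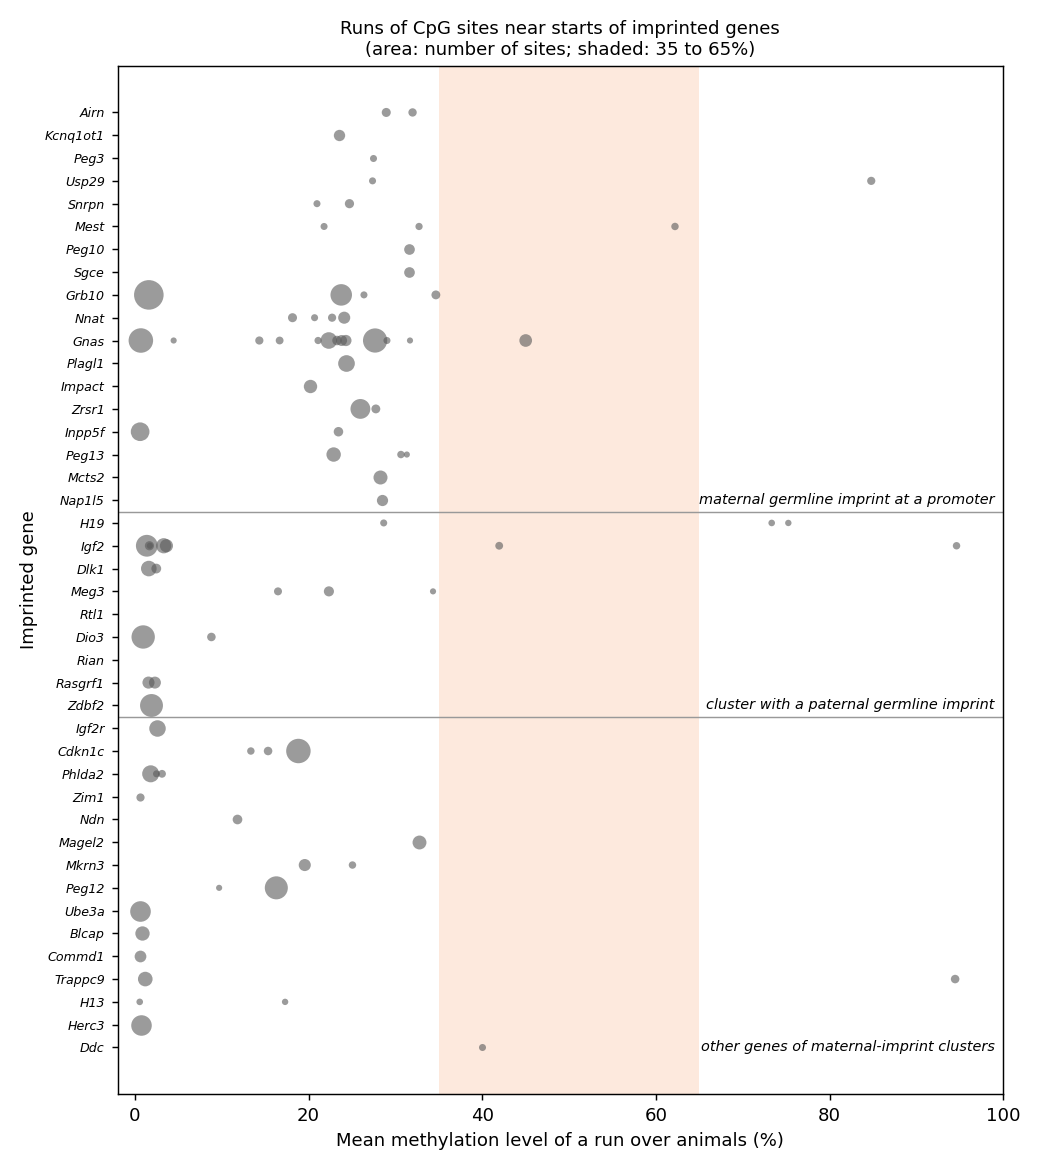
Mean methylation level of each run over the animals, as a percentage, by imprinted gene and in the 3 groups of genes. The area of a point shows its number of sites, the band of 35 to 65% is shaded, and a run in the windows of 2 genes is drawn for both. Of 86 runs, 28 lie under 10% and 49 at 10 to 35%, most of these in the group with a maternal germline imprint.

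Noncoding RNA genes that carry a germline imprint were partly methylated. At Airn, whose transcript silences Igf2r, the run at chr17:12742236-12742421 had 28.9% ± 9.37 (SD, n = 12) over 19 sites, and a shorter run had 32.0%. Kcnq1ot1 had 23.6% ± 5.37 over 35 sites at chr7:143295375-143295618, and Peg13 had 22.9% ± 3.29 over 62 sites at chr15:72809700-72810123. The starts of Igf2r and Trappc9, the genes in which Airn and Peg13 lie, were not. The run over the Igf2r start, of 84 sites at chr17:12769205-12769836, had 2.55% ± 1.28 (SD, n = 12), and the run over the Trappc9 start had 1.195%. These are differences in level at the measured starts and carry no statement on expression.

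Retrogenes with a maternal imprint lie inside introns of host genes, and host and retrogene differed at their starts. Mcts2 had 28.2% ± 8.19 (SD, n = 12) over 58 sites, while its host H13 had 0.556% in the run nearest its start. Nap1l5, which encodes a protein like nucleosome assembly factors, had 28.5% ± 8.49 over 34 sites at chr6:58906634-58906878, and its host Herc3 had 0.697% over 135 sites. Zrsr1, a splicing factor gene, had 26.0% ± 4.38 over 125 sites at chr11:22971863-22973141, and its host Commd1 had 0.564% over 38 sites. The internal start of Inpp5f, a phosphatase gene, had 23.4% ± 5.99 (SD, n = 11) over 22 sites at chr7:128688091-128688347, and its main start had 0.603% over 110 sites.

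Alternative starts of single genes differed in the same manner. In Grb10, the adaptor that restrains insulin receptor signalling, the run over the main starts, of 289 sites at chr11:12036661-12038048, had 1.61% ± 0.431 (SD, n = 12). Its downstream CpG island, of 149 sites at chr11:12025610-12026469, had 23.8% ± 3.40. In Gnas the run over the starts of exon 1, of 196 sites at chr2:174329660-174330956, had 0.687% ± 0.331. The nearby exon 1A, the germline imprint that controls Gnas, had 23.8% ± 6.71 over 32 sites and 22.3% ± 5.70 over 85 sites. Near Nesp, the first start of the gene, the run 49 bp upstream had 14.3% ± 16.5 over 14 sites and ranged from 0% to 50.4%. The run 369 bp downstream of that start had 24.3% ± 8.49 over 34 sites.

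Promoters at other maternal imprints lay in the same range. Peg10 and Sgce, a retrotransposon-derived gene and the epsilon-sarcoglycan gene, share 1 run over their paired starts at chr6:4747355-4747525, with 31.6% ± 11.3 (SD, n = 12) over 30 sites. Peg3, a zinc finger gene, and Usp29 share a run of 8 sites with 27.4% ± 9.51, and a further run of Usp29 had 84.8%. Snrpn, the splicing protein gene of the Prader-Willi region, had 24.7% ± 10.5 (SD, n = 11) over its start and 20.97% in a second run. Plagl1 had 24.3% ± 5.67 over 86 sites and Impact, a regulator of the kinase GCN2, had 20.1% ± 8.47 over 52. Mest, a hydrolase gene, had 21.8%, 32.7% and 62.2% in its 3 runs. Nnat, a brain membrane proteolipid gene, had 18.2% to 24.1% in 4 runs.

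The other genes of these clusters fell apart into partly methylated and unmethylated ones. Magel2, whose product takes part in protein trafficking, had 32.7% ± 2.69 (SD, n = 12) over 57 sites at chr7:62377231-62378132. Mkrn3, a gene that restrains puberty, had 19.6% ± 2.05 over its start, and Peg12 had 16.3% ± 2.78 over 172 sites. Ndn, which encodes necdin, had 11.8% ± 8.01 (SD, n = 11) over 23 sites. Cdkn1c, the cyclin-dependent kinase inhibitor gene, had 18.8% ± 1.97 over 195 sites at chr7:143458919-143460373. Ddc, the gene of the enzyme that makes dopamine and serotonin, had 39.9% ± 12.4 over 8 sites 2600 bp upstream of a start. Ube3a, the ubiquitin ligase gene of Angelman syndrome, had 0.617% over 136 sites. Blcap, Zim1 and the 3 runs of Phlda2 had between 0.571% and 3.12%. H13 had a second run at 17.3% and Trappc9 one at 94.5%.

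In clusters with a paternal germline imprint, fewer of the measured runs were partly methylated. Sites were taken only within 3 kb of a start, and whether these windows held the germline imprints of the clusters was not examined. H19, the maternally expressed noncoding RNA, had 20 sites and 3 runs. The run 22 bp upstream of its start had 28.7% ± 7.66 (SD, n = 12) over 8 sites, and the runs within the gene and 714 bp upstream had 75.3% and 73.3%. Igf2 had 323 sites and 7 runs, and 5 of the runs had means from 1.37% to 3.63%. A run of 10 sites 2861 bp from a start had 94.6% ± 3.42. Meg3, the noncoding RNA gene of the Dlk1 cluster, had 22.3% ± 8.39 over 26 sites at chr12:109540444-109541191 and 34.3% and 16.5% in its other runs. Dlk1, a Notch pathway ligand gene, had 1.60% and 2.46%, and Dio3, the thyroid hormone inactivating enzyme, had 0.955% and 8.81%. Rasgrf1, a Ras activator, had 1.57% and 2.31%, and Zdbf2 had 1.86% over 170 sites.

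Spread between animals was smaller in runs with more sites. The median SD over animals was 9.41 points in the 28 partly methylated runs with under 20 sites and 3.40 points in the 11 with at least 50. Dispersion is 1 when independent counts vary by counting error alone. Its median was 16.8 in the 35 partly methylated imprinted runs that could be fitted and 8.05 in all 6911 such runs of the genome. In a run a read counts at each site it covers, and sites and depth were not matched between these sets. What part of the difference comes from animals was not tested. At single sites the median dispersion was 3.44 for 819 imprinted sites with means of 10 to 50% and 3.69 for all 63312.

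**Figure D3:**
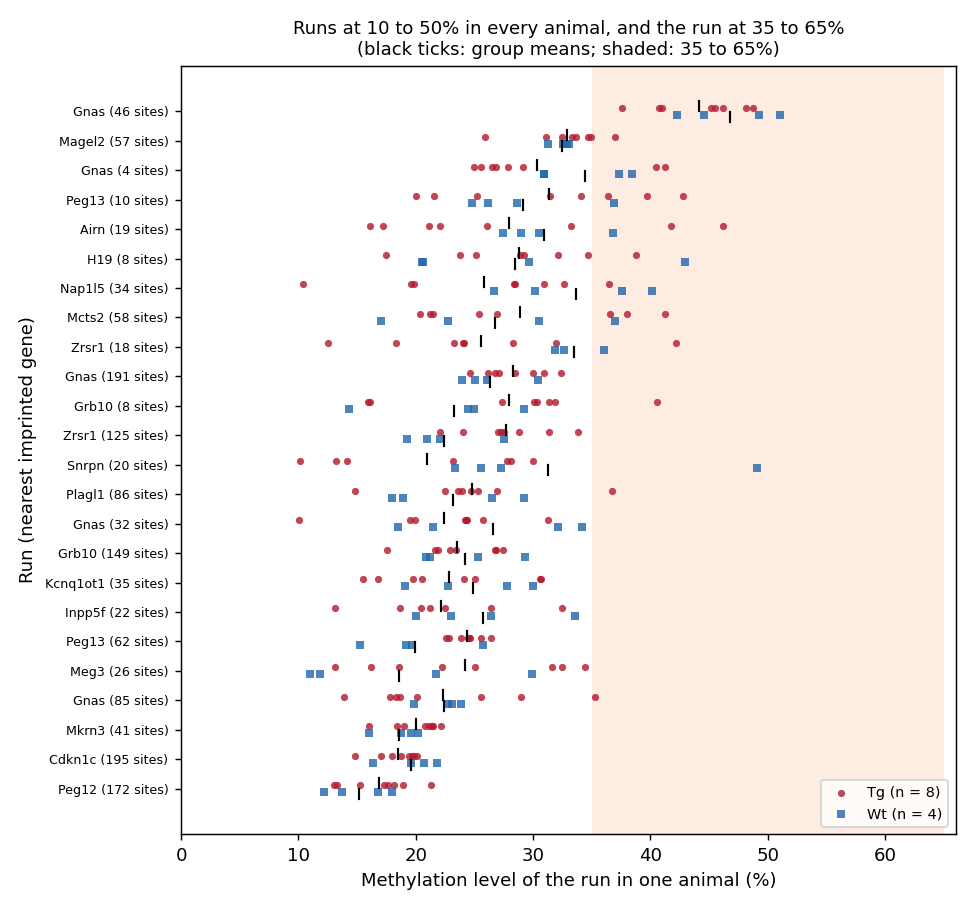
Methylation level, as a percentage, of the 23 runs at 10 to 50% in every animal and of the Gnas run of 46 sites near 50%, with a point for each Wt (blue squares) and Tg (red circles) animal and black ticks for the group means. The Gnas run is the only one of these with every animal inside the shaded band of 35 to 65%, and Wt and Tg ranges overlap in all of them.

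What partly methylated runs shared was next described by position and sequence. Of the 52, 10 spanned a transcript start and 27 lay within 500 bp of one, against 13 and 19 of the 28 runs under 10%. Their median number of sites was 18.5, against 55.5. The letters TGCCGC, which the zinc finger protein ZFP57 binds when methylated, were counted on both strands in 300 bp on the centre of each run. They were found in 21 of the 52 partly methylated runs (40.4%), in 9 of 28 runs under 10% (32.1%) and in 11.5% of all 92867 runs of the genome. The windows held a median of 15, 24.5 and 9 CpGs in these sets, and the part of CpG content in these shares was not tested. Of the windows printed above, Mcts2 and Peg13 held 3 matches each and Plagl1 held 2, while Gnas, Grb10 and Kcnq1ot1 held 0.

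The X chromosome offered a second set of promoters that are methylated on 1 of 2 copies, since females silence an X. Of 532 X-linked runs near a start with a level in every library, 391 were under 5% in each Tg male. Their median level was 0.407% to 0.667% in the Tg males, as their choice required. In the 7 libraries labelled female it was 17.9% to 20.1%, and in the library labelled Wt male 16.5%. Over these 8 libraries the middle 90% of runs had means from 8.07% to 25.6%, with a median of 18.9%. In all 8, 253 of the 391 runs (64.7%) were at 10 to 50% and 0 were at 35 to 65%. By the same cut in the Tg males, 14217 autosomal runs had a median of 0.871% in these 8 libraries. The 42 partly methylated imprinted runs with a level in every library had a mean of 23.8% to 29.1% in every library, males included. These 42 runs were chosen for means of 10 to 50%, so their place below 50% is no result.

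**Figure D4:**
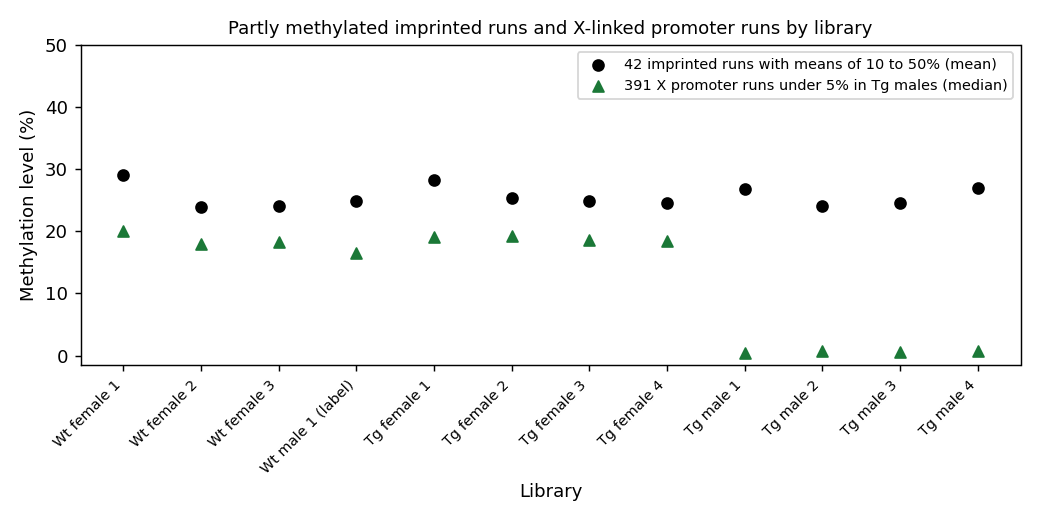
Methylation level (percentage) in each library of 42 partly methylated imprinted runs (black circles, mean over runs) and of 391 X-linked promoter runs that were under 5% in each Tg male (green triangles, median over runs). Imprinted runs lie between 23.8% and 29.1% in all 12 libraries. X-linked runs lie at 16.5% to 20.1% in 8 libraries, the one labelled Wt male included. They lie under 1% in the Tg males, whose low levels chose them.

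The study compared Tg with Wt animals at single CpG sites. It listed Nnat and Plagl1 among the genes linked to sites more methylated in Tg. Here the same data were used, and the groups were also compared over the imprinted runs. Over the 42 partly methylated runs, Wt animals had a mean of 25.5% ± 2.45 (SD, n = 4), and Tg animals one of 25.7% ± 1.45 (SD, n = 8). Group means were higher in Tg in 45 of the 86 runs and lower in 41, with a median difference of 0.0404 points. The ranges of Wt and Tg animals overlapped in all 86 runs. Among runs with enough sites in all 12 libraries, 0 of the 60 imprinted runs had ranges that did not overlap, against 0.294% of all 30998.

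**Figure D5:**
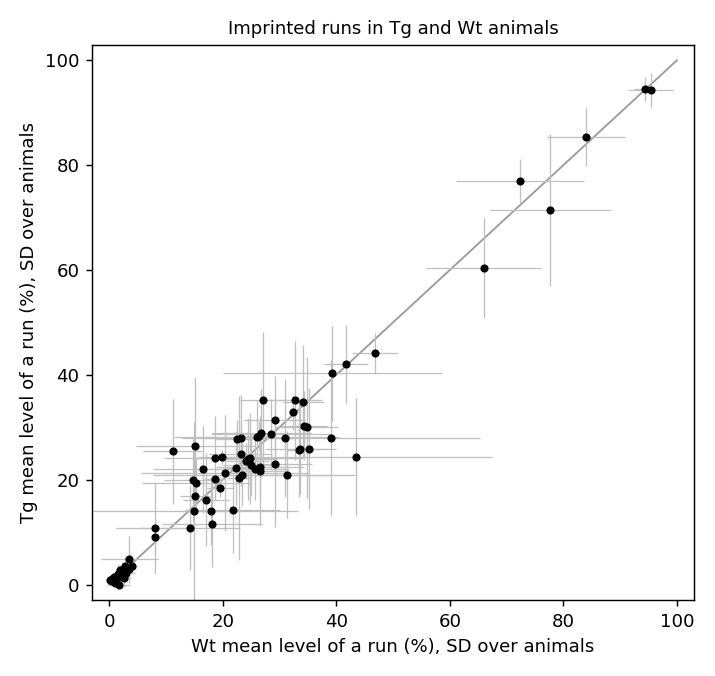
Mean methylation level of each of the 86 imprinted runs in Tg animals (vertical axis, percentage) against Wt animals (horizontal axis, percentage), with bars for the SD over animals. Points lie on both sides of the line of equal levels, 45 above and 41 below.

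Each site and run was tested with a logistic regression of methylated reads on genotype and sex, with p-values adjusted by the Benjamini-Hochberg method over the whole genome. A call needed a difference of 10 points or more and an adjusted p-value under 0.1. A model that lets animals differ beyond counting error called 0 of the 60 imprinted runs and 0 of the 2081 imprinted sites, and 0.0% of all runs and of all sites. At an unadjusted p-value under 0.05 it had 3 runs (5%, against 5.59% of all runs) and 177 sites (8.51%, against 10.9% of all sites). The smallest adjusted p-value was 0.867 among the runs and 0.422 among the sites.

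The binomial model takes all counts of an animal as independent, also those that 1 read gives at several sites of a run. It called 5 of the 60 imprinted runs (8.33%), against 3.13% of all runs. Among runs at 10 to 50%, where a difference of 10 points is possible in both directions, it called 5 of 35 imprinted runs (14.3%) and 8.75% of all. It called 121 imprinted sites (5.81%), against 1.72% of all sites, with 77 higher and 44 lower in Tg. Among sites at 10 to 50% the shares were 119 of 819 (14.5%) and 16.7%. The called runs were 2 runs of Nnat, 1 of Impact, 1 of Gnas and 1 of Mkrn3. Without Wt female 1, Wt female 2 or the library labelled Wt male, 3 imprinted runs were called in place of 5. Calls over all runs were not counted for these fits.

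Nnat had the smallest unadjusted p-value among imprinted runs in the model with animal spread. The run of 8 sites lies at chr2:157559574-157559610, 468 bp upstream of a start. Wt levels were 6.33%, 10.4% and 9.51% in the females and 18.5% in the library labelled Wt male. Tg levels ran from 5.70% over a median of 26.5% to 40%. The means were 11.2% ± 5.196 (SD, n = 4) and 25.4% ± 10.01 (SD, n = 8), and the ranges overlapped. Its adjusted p-value over all runs was 0.867 with the overdispersion F test. The Nnat run that begins 1 bp after a start, of 41 sites, had 24.4% ± 5.13 in Wt and 24.0% ± 7.79 in Tg.

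The other binomial calls had overlapping groups too. The Nnat run at chr2:157558035-157558304 had Wt levels from 0% to 22.9% and Tg levels from 10.9% to 47.7%. In the Gnas run at chr2:174286029-174286056, of 8 sites, Wt levels were 31.3% to 38.1% and Tg levels 12.5% to 50.4%. Mkrn3 had 22.1% to 38.2% in Wt and 0% to 38.7% in Tg, over 10 sites within the gene. Impact had 5.43% to 26.6% in Wt and 3.88% to 29.9% in Tg. In each of these runs the Tg range overlapped the Wt range, and the adjusted p-value of the F test was at least 0.887.

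Single sites were named as the 5 binomial calls with the smallest p-values of the F test, with 1 site per 1000 bp. The Nnat site at chr2 position 157559584 had Wt levels of 10.5%, 5% and 0% in the females and 11.1% in the library labelled Wt male, and Tg levels from 12.5% over a median of 33.03% to 50%. Its ranges did not overlap, which held for 1 of 2081 imprinted sites and 0.0709% of all sites. The opposite strand of this CpG differed by 2.80 points, in 11 libraries.

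At the Cdkn1c site, chr7 position 143460365, Wt levels were 46.7%, 41.0%, 29.4% and 48.6%, and Tg levels ran from 7.5% over 19.4% to 33.3%. Its opposite strand differed by -4.03 points. The Zrsr1 site, chr11 position 22972203, was at 5%, 22.2%, 15.6% and 20.9% in Wt and at 15.4%, 34.7% (median) and 47.6% in Tg, with 2.82 points on the other strand. The Tg mean was the lower one at Cdkn1c and the higher one at Zrsr1, with ranges that overlapped. The Peg13 site at chr15 position 72810996 had Wt levels of 22.6% to 79.3% and Tg levels of 7.69% to 43.8%. The Peg12 site at chr7 position 62464215 had 13.95% to 19.2% in Wt and 6.67% to 42.9% in Tg. All 5 had adjusted p-values from 0.422 to 0.448 with the F test over all sites.

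Sex was the other labelled factor. The overdispersion model called 0 of 60 imprinted runs by sex, and 0.0% of all runs, with 4 imprinted runs (6.67%) and 6.84% of all runs at an unadjusted p-value under 0.05. Without the library labelled Wt male it called 307 of 31185 runs, of which 303 were on the X, and again 0 of 60 imprinted runs.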

How the data were processed

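Genomic DNA of 12 brains was analysed by RRBS. Per the labels and the study, the authors had a service make paired-end reads, map them to mm10 and call methylation with Bismark, and read the alignments into methylKit themselves. The deposited values are read counts per CpG cytosine, strands apart: the coverage, methylated and converted reads, with no pooling and at least 10 reads. Depth limits the precision of each level, and reads without molecular identifiers are not independent molecules.

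Here counts were joined with Python (numpy, scipy). Transcript starts came from GENCODE vM21 basic, and each of the 4111 sites was a CpG in the reference. Runs, levels and thresholds are as given with the results. Run tests summed reads over sites with 10 reads in all 12 libraries, at least 3 per run. The logistic regression gave a likelihood-ratio chi-square (binomial) and an F test with a Pearson dispersion of at least 1 (overdispersion). Both were also run on simulated counts, with the outcome not given here, so their power is not stated. The exact permutation test planned for the near-50% run is not given, because its levels chose the run. Groups and sex followed the labels. P-values of the F test set a difference against the spread between these animals. Those of the binomial model set it against counting error alone.

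Members and lists were chosen with earlier results of these data known. Named are each run near 50% or missing it in 1 animal, each gene, and the sites stated with the results. A run has its position from the files, in mm10. The alternatives varied bands, gaps, site sets, read minimum, strand, covariate, samples and thresholds. Counts of runs at 10 to 50% and their alternatives were added after seeing the data.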

Additional observations from a re-analysis of the deposited data

Results flagged for a closer look

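Each partly methylated run with a level in every library was searched for 1 animal far from its group, by Dixon's ratio of the gap to the range. Of 84 groups in 42 runs, 3 passed the cutoff, which is no more than the rate of about 1 in 20 that chance gives. At the Nnat run that begins 1 bp after a start (chr2:157560131-157560478), Wt female 2 had 16.8%, with the other Wt animals at 26.4% to 27.9%. In the same run Tg female 2 had 6.90%, with the other Tg animals at 20.95% to 31.8%. At the Peg3 and Usp29 run (chr7:6730262-6730328), the library labelled Wt male had 4.18%, with the other Wt animals at 32.3% to 34.6%.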

How the results depend on the processing

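Over 158 alternatives of 10 results, 142 kept the direction and the side of the threshold, or a count within 1.5 times. Of the 49 alternatives other than leaving out an animal, 37 did. Counted as kept are calls of the overdispersion model that stayed at 0. For the Gnas difference the threshold was that of the permutation test not given here. Neither of these adds support. The count of runs near 50% was 1, and 0 with a band of 40 to 60%, with 20 reads per site or with plus-strand sites. It was 1 to 2 when 1 animal was left out. The share of imprinted sites with a mean near 50% was 3.31%, and 1.44% with a band of 40 to 60%, 11.1% with 30 to 70% and 2.16% with sites in all libraries, where the shares over all sites were, in that order, 5.95%, 3.87%, 8.18% and 2.09%. Leaving out an animal gave 3.25% to 3.90%. The 121 binomial site calls became 1 at 25 points, 307 with sites in at least 2 Wt and 4 Tg libraries, and 11 with 20 reads, and lay between 100 and 145 without 1 animal. The 5 binomial run calls became 11 at 5 points, 8 in the libraries labelled female and 3 with gaps of 500 bp, and 3 to 5 without 1 animal. The overdispersion model called 0 imprinted sites and 0 runs under every alternative run. For these genotype calls, no counts over all sites or runs were made under the alternatives, and some alternatives changed the number tested. The counts therefore do not set imprinted loci apart from the rest of the genome. The cause of these changes was not tested. The Gnas difference stayed negative, at -4.63 to -1.94 points, and at -4.17 to -1.25 points without 1 animal. Runs at 10 to 50% in every animal numbered 16 to 25 and 21 to 25, and those with means of 10 to 50% numbered 42 to 61 and 50 to 53, without 1 animal in each second range. No paired analysis was possible because the replicate numbers only follow the order of the records. Depth was lowest in Tg female 4, with a median of 18 reads per imprinted site, so that its levels rest on the fewest reads.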
